A study of Rattus norvegicus with 2 samples.

Results

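The synaptic vesicle and exocytosis genes are the genes that load, dock, prime, fuse and recover transmitter vesicles. They were taken by gene symbol alone, from the synaptotagmin, synapsin, VAMP, syntaxin, syntaxin-binding, SNAP, complexin, Rab3, SV2, RIM, Munc13, synaptophysin, synaptogyrin, NSF, SNAP adaptor, CAPS, Doc2, ELKS, bassoon and piccolo families. The rule found 89 genes among the 25395 genes with a unique name. Stellate ganglia, which supply the sympathetic nerves of the heart, were dissociated enzymatically and sequenced cell by cell in droplets, with 1 library for the normotensive Wistar stock and 1 for SHRs (spontaneously hypertensive rats) before hypertension sets in. All animals were males of 5 to 6 weeks and no treatment was given. The Wistar rat is an outbred stock and the SHR is an inbred strain. The predisposition to hypertension therefore cannot be told apart from the rest of the genetic background. With 1 library per strain, neither can be told apart from differences in dissociation or library preparation. The number of animals in each library is not given in the sources used here. The values are the authors' means over the sympathetic neuron cluster of each library, given here per 10000 counts of a cell, averaged over neurons. The paper describes 2 populations of sympathetic neurons, of which 1 also expressed neuropeptide Y. The means do not separate these populations, so a difference in their mix cannot be told apart from a difference within each. With 1 library in each group there was no replicate, no error and no test, and every difference between the strains compares these 2 libraries only.

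Sympathetic neurons release noradrenaline, and cotransmitters such as neuropeptide Y, from vesicles that fuse with the membrane when calcium enters. Fusion is driven by the SNARE complex, in which a vesicle SNARE (a VAMP) zips together with the target SNAREs syntaxin and SNAP-25. Synaptotagmins sense the calcium, Munc13, CAPS and complexins prepare and gate the complex, scaffolds hold vesicles at the release site, and NSF with the SNAP adaptors takes spent complexes apart.

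The cluster carried the markers of its label. The 11 sympathetic neuron markers summed to 121.2 per 10000 in each strain, and Th, the noradrenaline synthesis enzyme, was at 10.2 in Wistar and 10.1 in SHR. Of these 11, Dbh, Ddc and Maoa, enzymes of noradrenaline synthesis and breakdown, were at least 1.5 times lower in SHR, and the transcription factor Hand2 was at least 1.5 times higher. The summed markers of each other cell type were lower in the SHR cluster. The 10 satellite glia markers summed to 8.32 in Wistar and 2.83 in SHR, all 5 of them past a minimum of 0.1 were at least 1.5 times lower, with Kcnj10 at 0 in SHR and Ncmap at 0 in both. Apoe, at 6.24 in Wistar and 2.23 in SHR, made up most of the glia sum. The fibroblast markers summed to 1.02 and 0.201, the immune markers to 1.01 and 0.366, the smooth muscle markers to 0.115 and 0.0696, the endothelial markers to 0.0966 and 0.0307, and the erythrocyte markers to 0.0669 and 0.0499. Single markers under the minimum, namely Ptprc (immune), Acta2 and Tagln (smooth muscle) and Hba-a2 (erythrocyte), had higher means in SHR. The part of these other cell types in the results was not tested. Each gene is counted by tags from the 3′ end of its transcripts, 1 per molecule, so levels were compared between genes without division by length. A mean cannot tell fewer neurons with a transcript from fewer copies per neuron.

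Together the exocytosis genes took up the same share of the neuronal transcriptome in the 2 strains. The 89 means summed to 133.7 per 10000 in Wistar and 133.9 in SHR, a difference of 0.192%. This near equality joined opposite parts. Syt1, Snap25 and Syt4 alone held 43.0% of the sum in Wistar and 47.3% in SHR, with sums of 57.5 and 63.4 per 10000, whereas the other 86 genes summed to 76.2 and 70.5. Of the 89 genes, 56 averaged 0.1 per 10000 or more across Wistar and SHR, 33 did not, and 4 of those 33 were listed at 0 in both.

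A gene was called by size where 1 library mean was at least 1.5 times the other and the average reached 0.1 per 10000. By this rule 14 of the 56 genes were lower in SHR and none was higher. Of all 7621 genes past the same minimum, 26.5% were called lower and 5.22% higher, so the 25.0% of exocytosis genes called lower is near the background. The 14 genes were Syt2, Syt3, Stx1a, Stx2, Stx3, Stx5, Stx16, Stxbp5, Cadps, Unc13b, Sv2c, Syp, Pclo and Rims1. Lower means of any size were listed for 38 of the 56 genes, or 67.9%, against 65.6% of all genes. The median log2 ratio of SHR to Wistar means was -0.15 over the 56 genes and -0.21 over all genes. With ratios taken relative to that median gene, 7 exocytosis genes were at least 1.5 times lower and 5 were at least 1.5 times higher, against 17.3% and 13.2% of all genes. The 7 were Stx3, Syt2, Pclo, Cadps, Syp, Stxbp5 and Unc13b, and the 5 were Stx7, Snap25, Cplx1, Vamp2 and Vamp1. A member whose mean was below that of Wistar by less than 13.7% thus stood above the median gene.

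**Figure D1:**
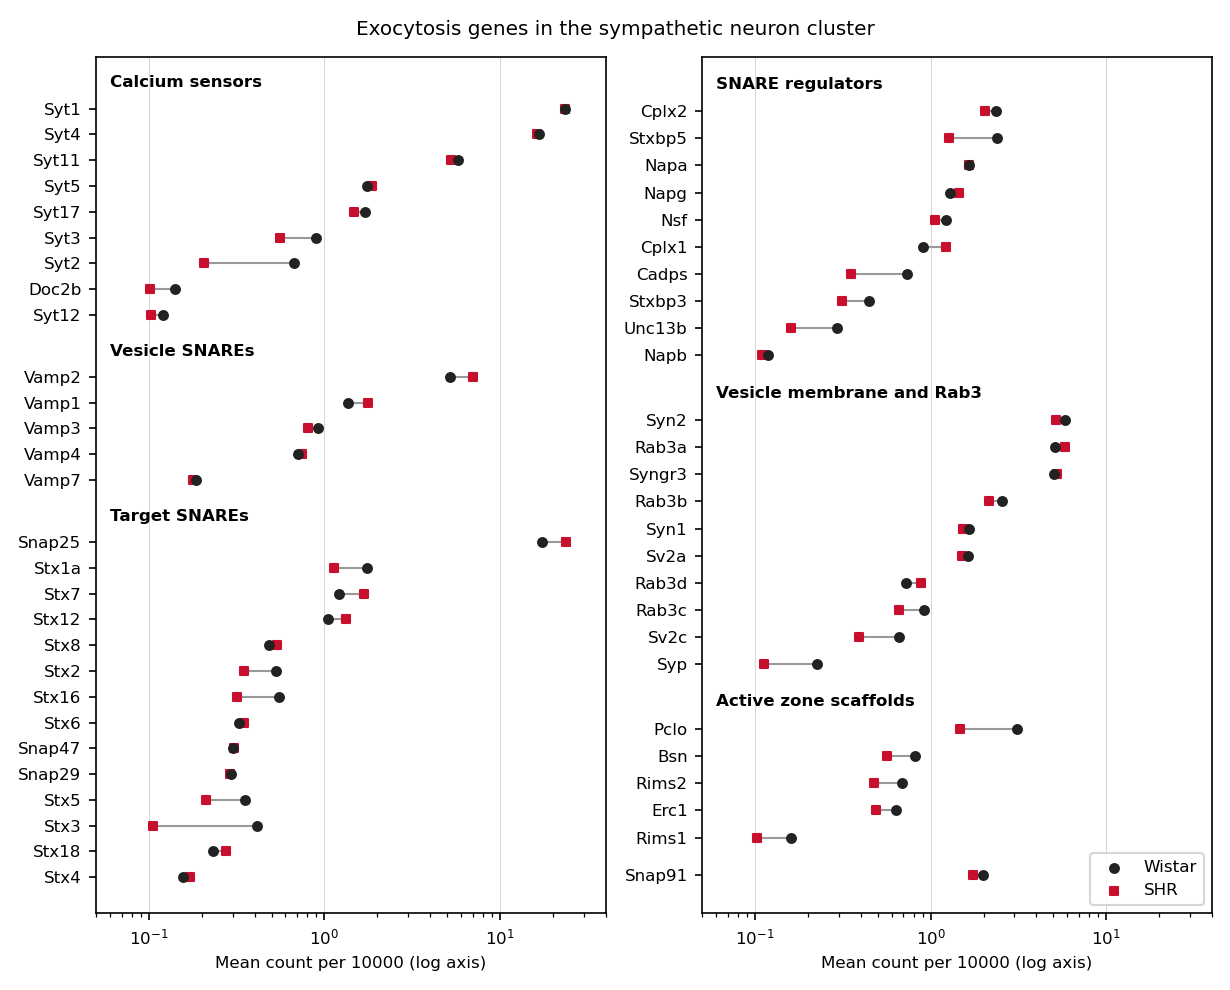
Mean count per 10000 (log axis) of 54 of the 56 exocytosis genes past the minimum, by role, with Wistar as black circles and SHR as red squares joined by a line; there is 1 library per strain and no error bar. Syt1, Snap25 and Syt4 lie highest, Snap25 and Vamp2 have the SHR square on the right, and all 5 active zone scaffolds have it on the left.

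The 4 core proteins of fast fusion did not differ between the libraries in the same way. Snap25, the membrane-attached SNARE, averaged 17.4 per 10000 in Wistar neurons against 23.7 in SHR, 36.0% more, a difference of 0.42 in the log2 of 1 plus the mean (log2 difference). Vamp2, the SNARE of the synaptic vesicle, was at 5.21 and 7.00 per 10000, 34.3% more in SHR, a log2 difference of 0.36. In contrast, Stx1a, the syntaxin that anchors the complex to the plasma membrane, was called lower, at 1.76 in Wistar and 1.14 in SHR, a difference of -35.2%. Syt1, the fast calcium sensor, stood at 23.4 per 10000 in both. Snap25 and Syt1 are among the 94 genes averaging at least 10 per 10000. Of these, 66 had higher means in SHR, and their median log2 ratio was 0.23, against 0.44 for Snap25 and -0.00096 for Syt1. Among all genes from 1 to 10 per 10000, the level of Vamp2 and Stx1a, the median log2 ratio was 0.048, against 0.43 and -0.63 for these 2. Ratios within a library do not depend on how the libraries were scaled. There were 9.91 Snap25 counts for each Stx1a count in Wistar and 20.8 in SHR, and 2.96 Vamp2 counts for each Stx1a count against 6.14. The ratio of Snap25 to Syt1 was 0.746 in Wistar and 1.01 in SHR.

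The bases before the start sites of Vamp2 and Stx1a, the pair with the opposite ratios, are shown with those of Syt1, the most abundant member, and Pclo, the member with the largest log2 difference. They are the 250 bases upstream of each RefSeq start in the GRCr8 assembly, which is not the assembly of the counts, read 5′ to 3′ on the gene's own strand. Vamp2 is at chr10:54292539-54292788 (plus strand), Stx1a at chr12:27306472-27306721 (minus strand), Syt1 at chr7:46244214-46244463 (minus strand) and Pclo at chr4:21005112-21005361 (minus strand). Capitals mark the GC box GGGCGG or its reverse complement CCGCCC.
Vamp2: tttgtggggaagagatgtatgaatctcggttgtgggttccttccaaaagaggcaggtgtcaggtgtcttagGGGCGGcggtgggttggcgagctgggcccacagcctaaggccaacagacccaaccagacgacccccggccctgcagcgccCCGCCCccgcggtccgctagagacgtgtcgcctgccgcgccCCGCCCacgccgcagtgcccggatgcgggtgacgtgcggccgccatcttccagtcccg
Stx1a: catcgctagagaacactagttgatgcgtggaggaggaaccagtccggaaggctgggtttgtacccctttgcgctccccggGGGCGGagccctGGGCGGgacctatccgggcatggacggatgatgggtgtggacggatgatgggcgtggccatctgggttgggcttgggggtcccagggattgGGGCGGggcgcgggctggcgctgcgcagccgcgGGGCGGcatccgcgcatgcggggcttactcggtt
Syt1: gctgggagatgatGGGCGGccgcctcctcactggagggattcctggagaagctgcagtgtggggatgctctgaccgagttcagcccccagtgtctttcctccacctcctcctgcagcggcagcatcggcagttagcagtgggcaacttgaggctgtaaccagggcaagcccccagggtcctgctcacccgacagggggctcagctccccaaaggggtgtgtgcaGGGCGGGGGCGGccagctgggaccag
Pclo: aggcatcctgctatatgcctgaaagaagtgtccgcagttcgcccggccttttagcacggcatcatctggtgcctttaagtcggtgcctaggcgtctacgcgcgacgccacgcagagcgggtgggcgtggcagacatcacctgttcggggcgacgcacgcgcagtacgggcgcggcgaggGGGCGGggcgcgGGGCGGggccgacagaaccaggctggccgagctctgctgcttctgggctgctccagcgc

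These windows held 3 GC boxes in Vamp2, 4 in Stx1a, 3 in Syt1 and 2 in Pclo, so the genes with opposite ratios share this element. An upstream sequence was matched by symbol for 69 of the 89 genes and for 44 of the 56 past the minimum. The GC box was found on either strand in 34 of the 44 (77.3%), in 63.0% of the 5910 windows of genes past the minimum and in 32.4% of all 27457 windows. The cyclic AMP response element TGACGTCA was found in 3 of the 44 (6.82%), namely Napa, Syn1 and Vamp1, against 3.43% and 1.70%. The TATA box TATAAA was found in 1 of the 44 (2.27%), Stxbp3, against 5.67% and 13.1%. The E box CACGTG was found in Napa, Nsf, Snap29 and Stx6, which is 9.09% of the 44 against 8.85% and 5.79%. TTCAGCACC, the left part of the RE1 element, was found in 0 of the 44 windows, against 0.338% and 0.317%. Both strands were searched for each motif, no motif contains another, and a match to the letters is a description of the window only.

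Among the calcium sensors, the synaptotagmin family was dominated by the same paralogues in both strains, and the largest differences were in scarcer ones. Syt1 ranked 25th of all genes in Wistar and 29th in SHR. Syt4, a synaptotagmin of dense-core vesicles whose first C2 domain lacks a calcium ligand, averaged 16.6 per 10000 in Wistar against 16.3 in SHR. Syt11, its close relative, was at 5.78 and 5.23. These 3 paralogues made up 45.7%, 32.5% and 11.3% of the family sum in Wistar and 47.4%, 33.1% and 10.6% in SHR. The family of 17 genes summed to 51.2 per 10000 in Wistar and 49.3 in SHR. Syt2, a second fast calcium sensor best known from hindbrain and motor synapses, was called lower, at 0.668 in Wistar and 0.207 in SHR, a difference of -69.1%. Syt3, a sensor of high calcium affinity, was called lower as well, at 0.898 and 0.557, a difference of -38.0%. There were 35.0 Syt1 counts for each Syt2 count in Wistar and 113.0 in SHR. Syt5 was at 1.74 and 1.86 per 10000, Syt17 at 1.71 and 1.47, and Syt12 at 0.121 and 0.102. Doc2b, a soluble sensor linked to spontaneous release, was at 0.140 and 0.102. The other 11 genes of this role were under the minimum, among them Syt7, the slow sensor of asynchronous release, at 0.0270 in Wistar and 0.00769 in SHR. Syt9 and Syt14, just under the minimum, were at 0.0972 and 0.0902 in Wistar and at 0.0833 and 0.0744 in SHR.

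Of the vesicle SNAREs, none of the 5 VAMP genes past the minimum was called, against 26.5% of all genes called lower and 5.22% higher. The family sum was 25.3% larger in SHR, at 8.39 per 10000 in Wistar and 10.5 in SHR. Vamp1, the other neuronal vesicle SNARE, was at 1.36 and 1.78, 30.5% more in SHR. Both neuronal members were therefore above Wistar, and their ratio stayed close, with 3.82 Vamp2 counts for each Vamp1 count in Wistar and 3.93 in SHR. The VAMPs that serve endosomes and lysosomes differed less. Vamp3 was at 0.915 and 0.812 per 10000, Vamp4 at 0.709 and 0.744, and Vamp7 at 0.185 and 0.179. Vamp8 was under the minimum, and Vamp5 was listed at 0 in SHR.

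Of 15 target SNARE genes past the minimum, 5 were called lower (33.3%, against 26.5% of all genes) and none higher (against 5.22%), yet the sum of the role was larger in SHR, 31.3 per 10000 against 25.6, because Snap25 makes up most of it. Stx3, a plasma membrane syntaxin, had the largest relative difference of all 56 genes, at 0.411 and 0.106 per 10000, a difference of -74.2% in SHR. How many counts stand behind a mean this low is not known. Stx2, also of the plasma membrane, was called lower at 0.528 and 0.347, a difference of -34.3%, whereas Stx4 was at 0.157 and 0.171. Stx5 and Stx16, which serve Golgi membranes, were called lower, at 0.352 and 0.552 in Wistar and 0.211 and 0.320 in SHR. The endosomal syntaxins Stx7 and Stx12 were not called, at 1.21 and 1.05 in Wistar and 1.67 and 1.33 in SHR, 38.4% and 26.8% more. Stx6, of the trans-Golgi network, was at 0.326 and 0.349 per 10000, Stx8 at 0.481 and 0.538, and Stx18, of the endoplasmic reticulum, at 0.231 and 0.275. The widely expressed relatives of Snap25 hardly differed, with Snap29 at 0.294 and 0.292 and Snap47 at 0.300 and 0.304. Relative to the median gene, Stx3 kept its call and Stx1a, Stx2, Stx5 and Stx16 did not. Stx11 and Stx17 were under the minimum.

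Of 11 SNARE regulator genes past the minimum, 3 were called lower (27.3%, against 26.5% of all genes) and none higher (against 5.22%). The 3 were Stxbp5, Cadps and Unc13b, while Cplx1, Cplx2 and the disassembly machinery were not called. Stxbp5 (tomosyn), an inhibitor that occupies the target SNAREs, was called lower, with 2.39 per 10000 in Wistar against 1.27 in SHR, a difference of -47.0%. Cadps (CAPS-1), a priming factor of dense-core vesicles, was called lower at 0.734 and 0.351, a difference of -52.2%. Unc13b (Munc13-2), a priming factor, was called lower at 0.293 and 0.160, a difference of -45.5%. Its paralogue Unc13a (Munc13-1) was under the minimum, at 0.0940 and 0.0452. The complexins kept their sum, 3.27 per 10000 in each strain, but not their proportions. Cplx2 was at 2.36 and 2.05 and Cplx1 at 0.906 and 1.23, so Cplx1 made up 27.7% of complexin counts in Wistar and 37.5% in SHR. The ATPase Nsf was at 1.22 and 1.06 per 10000. Of its adaptors, Napa was at 1.66 in both strains, Napg at 1.29 and 1.46, and Napb at 0.119 and 0.109. Stxbp3 was at 0.446 and 0.314, a difference of -29.5% and not called.

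Among the vesicle membrane proteins and Rab3 GTPases the 6 most abundant of 10 genes had differences from -15.4% to 15.3%, and the larger differences were in scarcer genes. Syn2 and Syn1, the synapsins that tether vesicles to the cytoskeleton, were at 5.79 and 1.64 in Wistar and 5.19 and 1.52 in SHR, with 3.52 and 3.42 Syn2 counts for each Syn1 count. Syngr3, a synaptogyrin of the vesicle membrane, was at 5.06 and 5.27, and Sv2a, a vesicle glycoprotein, at 1.62 and 1.51. Its paralogue Sv2c was called lower at 0.662 and 0.391, a difference of -40.9%, so that Sv2a took 71.0% of the counts of both Sv2 genes in Wistar and 79.4% in SHR. Syp, synaptophysin, which is used widely as a marker of synaptic vesicles, was scarce in these values, at 0.224 in Wistar and 0.112 in SHR, a difference of -49.9% and called lower. Rab3 proteins are the small GTPases that bring vesicles to the release site. Rab3a was at 5.08 per 10000 in Wistar and 5.85 in SHR, Rab3b at 2.54 and 2.15, Rab3c at 0.919 and 0.660 and Rab3d at 0.724 and 0.882. None of the 4 was called, against 26.5% of all genes called lower and 5.22% higher. Rab3a took 54.9% of Rab3 counts in Wistar and 61.3% in SHR. Synpr was at 0.0244 in Wistar and listed at 0 in SHR.

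All 5 active zone scaffold genes past the minimum had lower means in SHR, where 65.6% of all genes did, and 2 of the 5 were called, against 26.5% of all genes. The 8 genes of this role summed to 5.62 per 10000 in Wistar and 3.21 in SHR, a difference of -42.9%. Pclo (piccolo), a very large organiser of the release site, was called lower at 3.11 and 1.46 per 10000, a difference of -53.0%, a log2 difference of -0.74. Rims1, which links Rab3 to calcium channels and Munc13, was called lower at 0.160 and 0.103, a difference of -36.0%. Its paralogue Rims2 was at 0.689 and 0.473, a difference of -31.4%, and Bsn (bassoon), the partner of piccolo, at 0.810 and 0.565, a difference of -30.3%. Erc1 (ELKS) was at 0.630 and 0.487, a difference of -22.7%. With the total taken over genes that are neither mitochondrial nor ribosomal all 5 means were lower in SHR as well. That total shifts all ratios alike by far less than these 5 differences, so this outcome says little. Relative to the median gene Pclo kept its call and Rims1 did not. All 5 are long genes, Bsn in decile 9 and the others in decile 10 of gene span (the length of the gene in the GRCr8 annotation, decile 10 being the longest). In decile 10, 85.6% of all genes had lower means in SHR, 47.1% were called lower and the median log2 ratio was -0.55, against log2 ratios of -1.09 for Pclo, -0.64 for Rims1, -0.54 for Rims2 and -0.37 for Erc1. Rims3, Rims4 and Erc2 were under the minimum, with Erc2 at 0.136 in Wistar and 0.0424 in SHR.

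**Figure D2:**
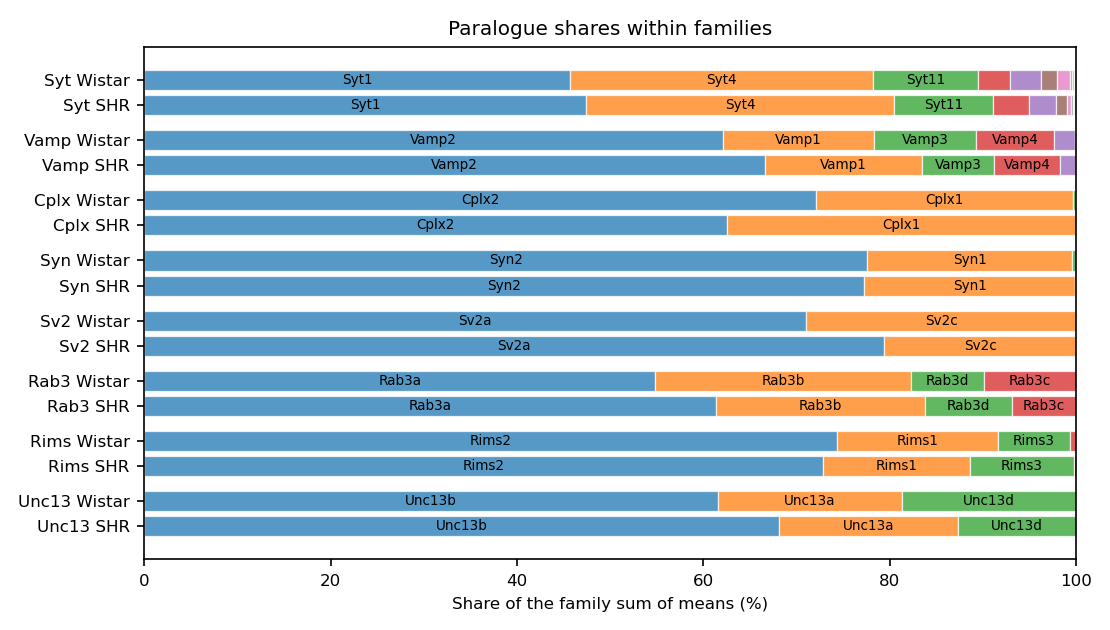
Share of the family sum of means (%) taken by each paralogue in Wistar and SHR for 8 families; each bar is 1 library, colours mark paralogues in order of level and small segments are unlabelled. Cplx1 is wider in SHR (37.5% against 27.7%), Sv2a is wider as well (79.4% against 71.0%), and the split of Syn2 and Syn1 is alike.

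The symbol rule also takes Snap91, whose product AP180 assembles clathrin coats and is not a SNARE. Its mean, 1.98 per 10000 in Wistar and 1.74 in SHR, was not called. Without Snap91, Sypl1 and the syntaxins and VAMPs of internal membranes, 12 of 45 genes past the minimum were called lower (26.7%, against 26.5% of all genes) and none higher (against 5.22%).

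The 33 genes under the minimum summed to 0.895 per 10000 in Wistar and 0.500 in SHR. Syt8, Doc2a, Unc13c and Cplx4 were listed at 0 in both libraries. Synpr, Syt6, Syt13, Syt15, Stxbp2, Stxbp6 and Vamp5 were listed at 0 in SHR and above 0 in Wistar, with Wistar means of at most 0.0244. Doc2g, Syt10, Syt16, Unc13d, Stxbp4, Cplx3, Cadps2, Syn3, Syngr1, Syngr2, Syngr4 and Sypl1 were also under the minimum. Of these, Sypl1 had the highest average, at 0.0855 in Wistar and 0.0618 in SHR. Of these 12, Syt10, Cadps2 and the synaptogyrins Syngr1, Syngr2 and Syngr4 had higher means in SHR. No gene of the module was listed at 0 in Wistar alone. Of all genes, 14645 were above 0 in SHR and 16000 in Wistar, a number that moves with the count of neurons and the depth, and both of these are unknown. Snap23, Sv2b, Stx19 and Vamp9 were not analysed here.

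The calls followed the level of the gene. At an average of at least 10 per 10000 none of the 3 members was called, against 5.32% of all genes called lower and 19.1% called higher. From 1 to 10 per 10000, 3 of 23 members (13.0%) were called lower, namely Pclo, Stxbp5 and Stx1a, against 12.0% of all genes, and none was called higher, against 9.73%. From 0.1 to 1 per 10000, 11 of 30 members (36.7%) were called lower, against 30.7% of all genes, and none was called higher, against 3.80%. In each class of level the share of members called lower therefore lay near that of all genes, while members called higher were absent. With the limit eased to a ratio of 5 to 4, Snap25, Vamp1, Vamp2, Cplx1, Stx7 and Stx12 were higher in SHR, which is 6 of the 56 genes against 15.5% of all genes. At this limit 20 of the 56 were lower, against 42.1% of all genes.

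**Figure D3:**
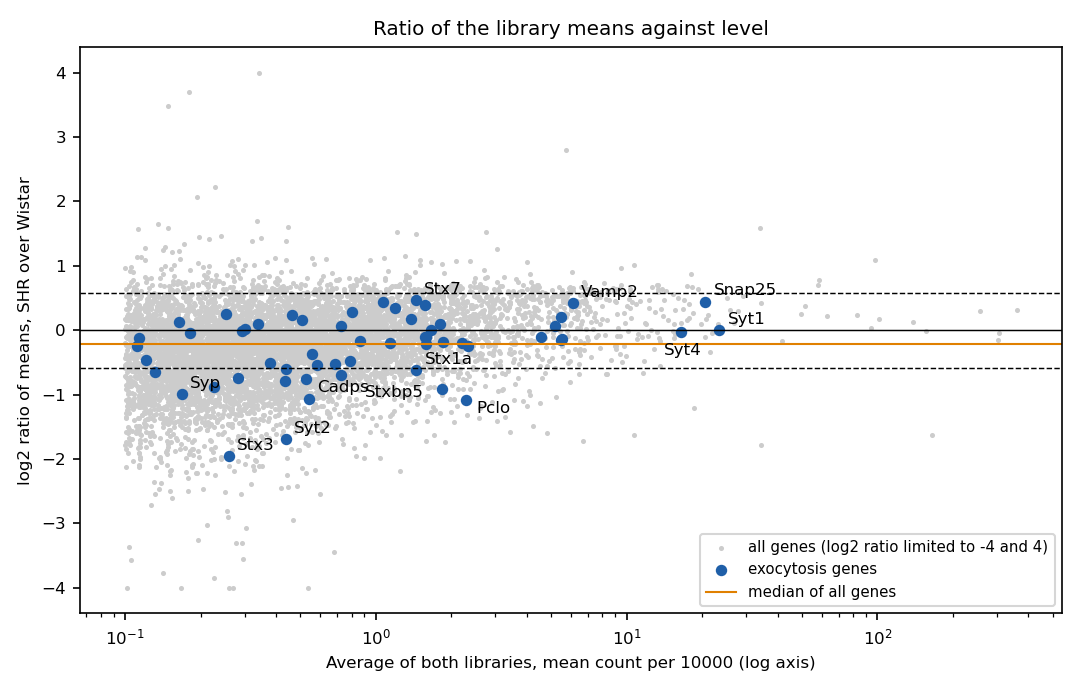
Log2 ratio of the SHR to the Wistar mean against the average of both (log axis) for all 7621 genes past the minimum (grey) and the 56 exocytosis genes (blue), with dashed lines at a ratio of 1.5 and an orange line at the median of all genes (-0.21). No blue point lies above the upper dashed line, and Stx3 and Syt2 lie lowest among the blue points.

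Gene span moved with the calls. Genes past the minimum were ranked by the length of the gene in GRCr8 and divided into 10 equal groups (deciles). The share of all genes called lower went from 8.36% in the shortest decile to 47.1% in the longest. The longest decile held 14 of the 56 exocytosis genes, 7 of them called lower (50.0%). They were Pclo, Cadps, Stxbp5, Stx3, Sv2c, Unc13b and Rims1. In the 5 longer groups 11 of 39 members were called lower (28.2%), against 35.2% of all genes, and in the 5 shorter groups 3 of 17 (17.6%), against 17.6% of all genes. Syt1, although in the longest decile, did not differ in this way. Snap25 is in the decile next to it and had more counts in SHR. Vamp2, Rab3a, Syngr3, Vamp1 and Syt5 made up the members of the 2 shortest deciles, and each had a mean above that of Wistar. The part of gene span in the results was not tested beyond these values.

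**Figure D4:**
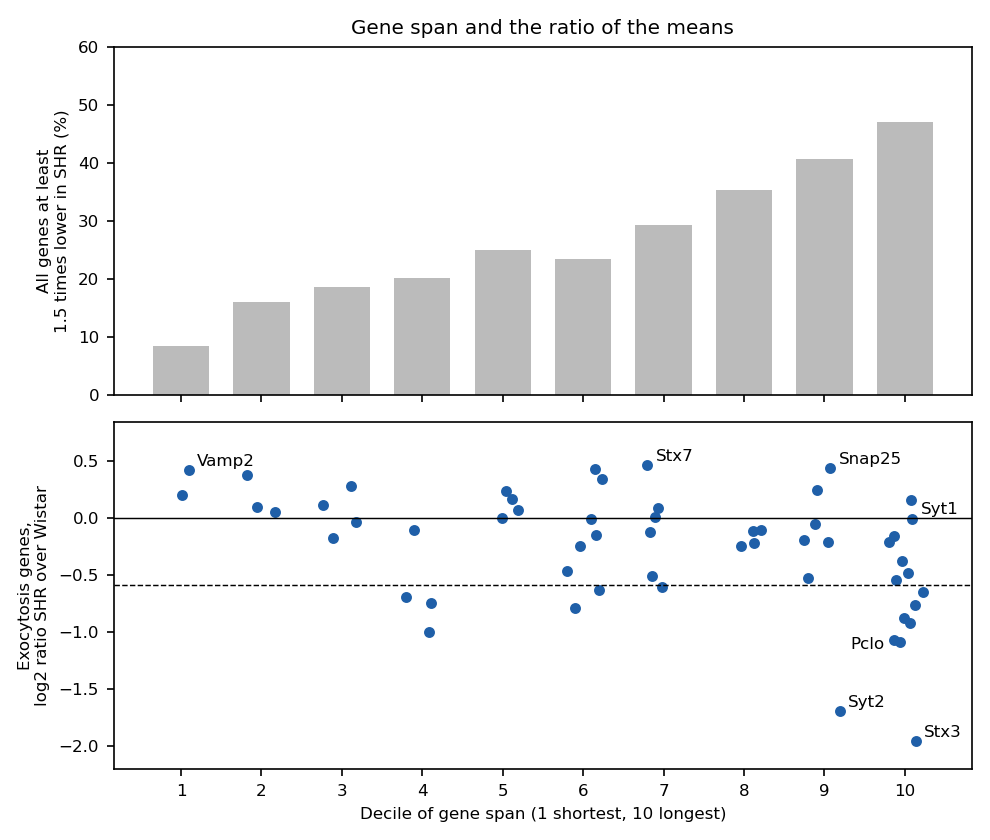
Top, percent of all genes past the minimum at least 1.5 times lower in SHR, by decile of gene span; bottom, log2 ratio of SHR to Wistar means of the 56 exocytosis genes in the same deciles, with points spread sideways for legibility and a dashed line at 1.5 times lower. The grey bars climb from 8.36% to 47.1%, and 7 of the 14 members in the longest decile lie under the dashed line while Syt1 lies at 0.

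Genes that load, retrieve and accompany vesicles were then taken from 4 further lists. Of their 65 listed genes, 42 passed the minimum, 16 were called lower (38.1%) and 2 higher (4.76%), against the same 26.5% and 5.22% of all genes. Slc18a2, the vesicular monoamine transporter that fills vesicles with noradrenaline, was at 5.36 per 10000 in Wistar and 3.63 in SHR, a difference of -32.1% and just short of the limit. Its paralogue Slc18a1 was called lower at 0.172 and 0.0888. The 2 genes called higher were synucleins, small proteins of the nerve ending that bind vesicle membranes. Sncg was at 44.1 per 10000 in Wistar and 71.4 in SHR, 61.9% more, and Sncb at 1.81 and 3.17, 75.0% more. At the level of Sncg, at least 10 per 10000, 19.1% of all genes were called higher, and at that of Sncb, 1 to 10, 9.73% were. Sncg is in decile 2 of gene span and Sncb in decile 3, where 10.0% and 5.08% of all genes were called higher.

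Among 17 endocytosis genes past the minimum, 4 were called lower (23.5%, against 26.5% of all genes) and none higher (against 5.22%). They were Bin1 (amphiphysin-2) at 2.21 and 1.19, Itsn2 (intersectin-2) at 0.981 and 0.516, Dnm2 (dynamin-2) at 0.530 and 0.298, and Sh3gl1 (endophilin-A2) at 0.415 and 0.266. The clathrin heavy chain Cltc was at 7.63 per 10000 in Wistar and 5.28 in SHR, a difference of -30.8%, whereas the light chain Clta was at 3.83 and 4.83, 26.2% more. There were 1.99 Cltc counts for each Clta count in Wistar and 1.09 in SHR. The neuronal dynamin Dnm1 was at 1.86 and 1.52. Of 6 exocyst genes past the minimum, Exoc4 alone was called lower (16.7% of the 6, against 26.5% of all genes). It was at 0.240 in Wistar and 0.0945 in SHR, a difference of -60.6%. Exoc4 is in decile 10 of gene span, where 47.1% of all genes were called lower. The accessory list had 10 of 17 genes called lower (58.8%, against 26.5% of all genes). All 10 averaged between 0.1 and 1 per 10000, where 30.7% of all genes were called lower. Ppfia1, Ppfia2, Rimbp2, Stxbp5l and Otof are in deciles 9 and 10 of gene span, where 40.7% and 47.1% were. Prrt2 is in decile 2, Ppfia3 and Scamp2 in decile 6, and Ppfia4 and Rab27a in decile 8. In these deciles 15.9%, 23.3% and 35.4% of all genes were called lower. The 10 included the 4 liprins Ppfia1, Ppfia2, Ppfia3 and Ppfia4, scaffolds of the active zone, whose means ranged from 0.197 to 0.800 in Wistar and from 0.104 to 0.496 in SHR. The others were Rimbp2, Stxbp5l, Rab27a, Scamp2, Prrt2 and Otof, the last a calcium sensor of hair cells, at 0.183 and 0.0457.

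**Figure D5:**
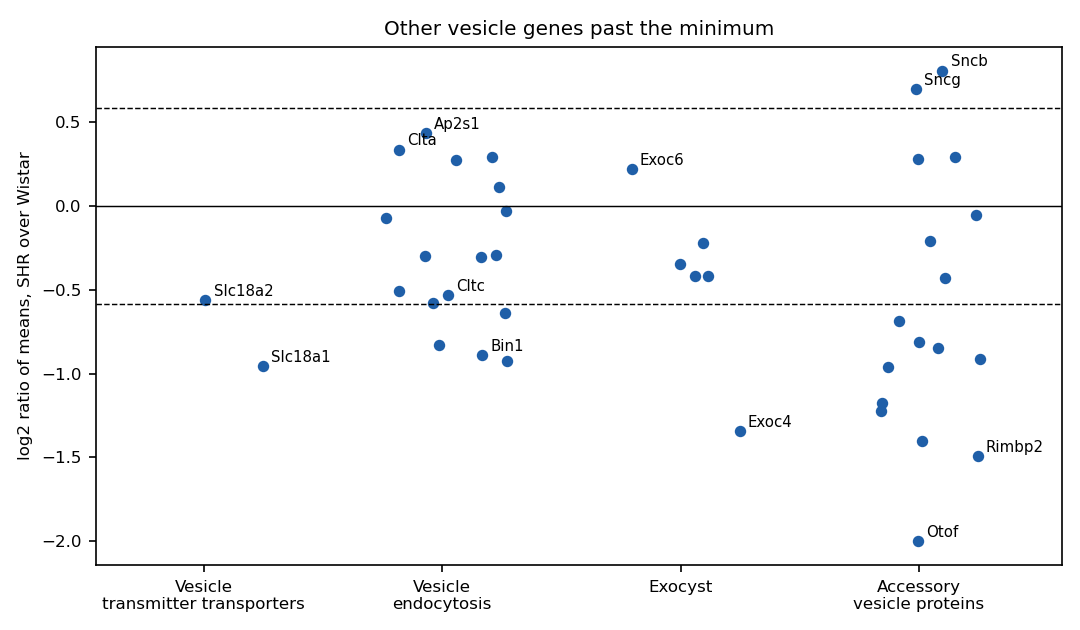
Log2 ratio of SHR to Wistar means of the 42 genes past the minimum in 4 lists of other vesicle genes, 1 point per gene, spread sideways for legibility, with dashed lines at a ratio of 1.5. Sncb and Sncg are the points above the upper line, and 16 points lie under the lower line.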

How the data were processed

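Stellate ganglia of both strains were dissociated with collagenase and trypsin, and single cells were sequenced with the 10x Genomics 3′ chemistry. The submitters' processing notes name Cell Ranger 3.0.2, Seurat 3 and the build Rnor_6.0. DESeq2 is also named there, with no role given. The authors clustered the cells and deposited 1 value per gene and library for the sympathetic neurons, in natural log units: ln(1 + mean per 10000 counts). Converted back, the 25399 lines sum to 10000 in each library. The number of neurons, the depth per neuron and the handling of doublets are not given in the sources used here, so no counting error or detection limit could be stated. A deposited table of the authors' own comparison (fold changes, p-values and shares of cells) was not used.

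Means were obtained by exponentiation with Python 3.11.15, NumPy 2.4.6 and pandas 2.3.3. The 4 lines with a repeated name, all turned into dates, were left out. Differences are log2(mean + 1), SHR minus Wistar, a scale that understates differences of scarce genes, and percent differences use the means themselves. The script that makes the size calls was checked on simulated data without counting noise, which checks the code and not the reliability of the calls. Every gene of the symbol rule was to be named (2 are counted but not reported here), those with an average of at least 0.1 per 10000 with both values, and of the other lists the genes past the ratio of 1.5. Slc18a2, Cltc, Clta, Dnm1 and the motifs searched were chosen after their values were seen, as were the classes of level. The members and lists were chosen with earlier results of these data known. Spans came from RefSeq (GRCr8), matched by symbol or synonym for 7291 of 7621 genes and all 56 members. Upstream sequences are RefSeq's, 250 bases each.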

Additional observations from a re-analysis of the deposited data

How the results depend on the processing

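No paired analysis was possible because the design has a single library per strain, so leaving out a library was not possible either. Pseudocounts changed the median log2 difference of the exocytosis genes (-0.071) most, to -0.13 at 0.1, -0.15 at 0.01 and -0.015 at 10, by construction. The median over all genes was -0.052, and went to -0.16, -0.21 and -0.0069 at the same pseudocounts. With 10 added to both means no exocytosis gene was called lower, against 0.0656% of all genes. With the median gene set to 0 the calls, made on ratios, were 7 lower and 5 higher (17.3% and 13.2% of all genes). On the log2(mean + 1) scale, with the median of all genes set to 0, the median difference was -0.019. Without a minimum, 26 were lower and 3 higher of 78 genes above 0 in both libraries, against 35.8% and 11.6% of all genes. The median difference was then -0.018 over 85, against -0.0076 over all genes. With a minimum of 1 per 10000, 3 of 26 were lower, against 11.6% of all genes. The median difference was then -0.045, below 0 while the median over all genes was 0.038. A ratio of 5 to 4 gave 6 higher genes of 56 (15.5% of all genes), and a ratio of 2 gave 4 lower genes (11.3% of all genes). A total without mitochondrial and ribosomal genes gave 13 lower and none higher of 59 genes, against 25.3% and 6.30% of all genes. It gave sums of 165.5 and 170.5 per 10000, and turned the small differences of Syt1, Syt4, Napa and Snap29 positive. Subtracting the median log2 difference, on the log2(mean + 1) scale, turned those and Syt12, Napb, Doc2b and Vamp7 positive. On the ratio scale Doc2b and Syt12 stayed below the median gene, with log2 ratios of -0.25 and -0.029 relative to it. None of the 14 called genes changed direction under the totals and centring tried. The same pseudocount in both means cannot change a direction. The totals shifted all ratios alike by far less than a called ratio, so this outcome says little about the calls. Leaving the markers of other cell types out of the total moved no count, and moved the Wistar sum only from 133.7 to 133.8 per 10000. It does not remove counts that such cells may add to the exocytosis genes, which was not tested. The depth behind each mean is unknown, so differences of scarce genes such as Stx3, Syt2 and Syp are the least certain.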
